A study of Mus musculus with 8 samples.

Results

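The account covers 10 genes whose proteins keep mitochondrial proteins folded, degrade damaged ones or signal mitochondrial stress to other cells. They were taken by symbol from the deposited table of 23366 genes, and all 10 were found and passed the filter on low counts. Hspd1, Hspe1, Hspa9, Dnaja3 and Trap1 encode chaperones of the mitochondrial matrix, Lonp1, Clpp and Clpx encode matrix proteases or their subunits, and Gdf15 and Fgf21 encode secreted hormones called mitokines. The RNA came from fibroblasts of C57BL/6 mouse embryos (MEFs), used at passages 3 to 5. The 4 groups of 2 libraries were Kdm3a KO-labelled cells kept 12 h without glucose, KO-labelled cells when fed (0 h), wild-type (WT) cells kept 12 h without glucose, and WT cells when fed. All grew in DMEM, the fed ones with 10% serum and the starved ones in glucose-free DMEM with 10% dialyzed serum after a wash in saline. No group was kept fed for 12 h, so glucose, medium, serum and time cannot be told apart, and "starved" means all of them. The labels do not describe the Kdm3a allele, nor whether the replicates are independent cultures, and the p-values reflect only how far these libraries differ from each other, which may be technical spread.

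Mitochondria import most of their proteins as unfolded chains. The HSPA9 chaperone (mortalin) pulls the chains through the inner membrane and starts their folding, the HSPD1 and HSPE1 chaperonin (HSP60 and HSP10) finishes it, and the proteases LONP1 and CLPXP clear what stays damaged. When these proteins are overloaded, animal cells raise the nuclear genes for them, and mammalian cells also engage the ATF4 and CHOP stress factors, which act on Gdf15 and Fgf21 among other genes.

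Libraries held 38407520 to 53602289 counts with 1 row per gene, and replicates differed by more than sampling noise (chi-square over its degrees of freedom, 3.34 to 6.04). Levels are given as CPM, read counts scaled to library size after TMM correction for library composition, and a call means an adjusted p under 0.05 in edgeR's quasi-likelihood test over 14418 genes. Kdm3a, a histone demethylase gene and the targeted gene, stood at 65.4 and 66.7 CPM in starved KO-labelled, 55.2 and 55.4 CPM in fed KO-labelled, 175.8 and 185.4 CPM in starved WT and 56.1 and 56.4 CPM in fed WT libraries. It was lower in KO-labelled cells when starved (-1.45 ± 0.041) and not called when fed (-0.02 ± 0.043, edgeR adjusted p = 0.619). Counts over a whole transcript need not show a lost exon, but in fed cells the label was not borne out by this level, so the cells are called KO-labelled and every direction between genotypes rests on that label. Xist, expressed from an inactive X, was read at 869 to 1370 CPM in KO-labelled and 0.939 to 1.54 CPM in WT libraries, and 4 Y-linked genes had 0 to 2 and 296 to 1251 counts, so genotype label and sex of the cells cannot be told apart. Of 10 fibroblast markers, 9 or 10 had counts in every group, and they summed to 13088 to 13214 CPM in starved KO-labelled, 10747 to 10793 CPM in fed KO-labelled, 19958 to 20961 CPM in starved WT and 19557 to 20160 CPM in fed WT libraries. The sum hides members that moved apart: 2 rose and 8 fell in KO-labelled starvation (median -0.98), and 3 rose and 5 fell in WT starvation (median -1.67). Vim and Fn1 rose in both, while the collagen gene Col1a1 averaged 693 CPM in starved and 1696 CPM in fed KO-labelled cells, and 248 CPM in starved and 4662 CPM in fed WT cells. Thy1 averaged 6.25 CPM in fed KO-labelled and 101 CPM in fed WT cells. Ptprc, Tyrobp and Emr1, of blood cells and macrophages, and Cldn5, Plin1, Lep, Cidec and Rbfox3, of endothelium, fat and neurons, were at 0 in all libraries. Other markers of those lists were not: Kdr, of endothelium, averaged 4.82 CPM in starved KO-labelled, 2.92 CPM in fed KO-labelled, 53.8 CPM in starved WT and 2.06 CPM in fed WT cells. Fabp4, of fat, averaged 30.7 CPM in starved KO-labelled, 60 CPM in fed KO-labelled, 7.44 CPM in starved WT and 10.9 CPM in fed WT cells. Map2, of neurons, averaged 46.7 CPM in starved KO-labelled, 30.3 CPM in fed KO-labelled, 35.1 CPM in starved WT and 56.9 CPM in fed WT cells. These markers were named after their values were seen, and their part in the results was not tested. Calls depend on scaling: with library totals in place of TMM the median of all genes went to -0.63 and not -0.17 in WT starvation, and to -0.27 and not -0.02 in KO-labelled starvation. The share of calls that were higher was 45% with TMM and 28.2% with totals in WT starvation, 49.4% and 37% in KO-labelled starvation, 46.4% and 55.1% between fed genotypes, 52.6% and 67.4% between starved genotypes, and 52.9% and 67% in the difference between the responses.

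Starvation came first, in each genotype. Of the 10 genes, 9 were called higher and 1 lower in starved KO-labelled cells against fed ones, and likewise 9 higher and 1 lower in starved WT cells against fed ones. Over all genes, 39.4% were called higher and 40.3% lower in KO-labelled starvation, and 36.7% higher and 44.8% lower in WT starvation (79.7% and 81.6% in either direction). Starved and fed libraries did not overlap for any of the 10 genes, against 90% of all genes in KO-labelled and 89% in WT starvation. The median log2 fold change of the 9 genes without Fgf21, which had no counts in fed cells, was 1.48 in KO-labelled and 1.09 in WT starvation, against -0.02 and -0.17 over all genes. With Fgf21 at its lower bound the medians over 10 genes were 1.48 and 1.17. The same 9 higher and 1 lower were counted in both genotypes with library totals, with medians of 1.23 and 0.71. The lower gene was Clpx in each case. Fgf21 is among the higher genes, but it passed the filter on low counts through the starved libraries alone. Its call and its lack of overlap could thus only point upward.

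**Figure D1:**
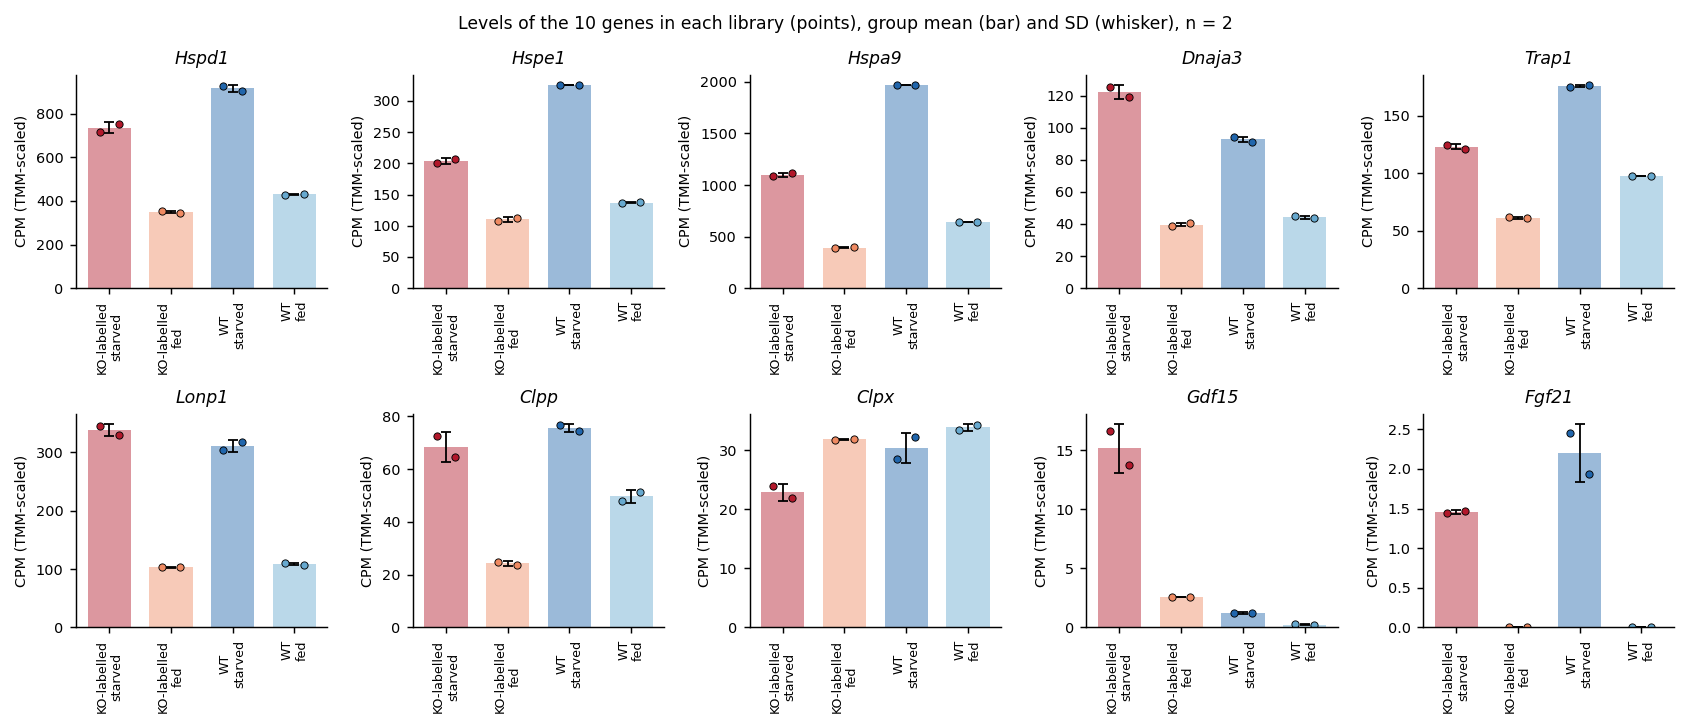
Level of each gene in CPM (vertical axis, each panel from 0 with its own scale) in the 4 groups. Points are the 2 libraries, bars their mean and whiskers their SD. The starved groups stand above the fed groups of the same genotype for each gene but Clpx.

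The chaperonin pair is read from 1 locus. Hspd1 and Hspe1 lie head to head on chromosome 1, on opposite strands, and the promoter windows that RefSeq gives for them (250 bases before to 50 after each start, build GRCm38.p6) share 285 bases for 1 of the starts listed for Hspd1, 216 bases away, and 4 bases for the other, 95 bases away. The stretch before the Hspe1 start is shown because it holds the Hspd1 start 216 bases away. With the other Hspd1 start, which lies past the Hspe1 start, the genes overlap and the stretch lies within Hspd1. It holds the repeated GAA and TTC blocks of a heat shock element, the site of heat shock factors. The search was for GAANNTTCNNGAA and TTCNNGAANNTTC, which are reverse complements of each other, on both strands. Matches overlapped, from -89 to -77 and from -84 to -72 relative to the Hspe1 start, and capitals mark them in the 250 bases before that start (chr1:55087898-55088147, plus strand of GRCm38.p6, 5′ to 3′).
Hspe1: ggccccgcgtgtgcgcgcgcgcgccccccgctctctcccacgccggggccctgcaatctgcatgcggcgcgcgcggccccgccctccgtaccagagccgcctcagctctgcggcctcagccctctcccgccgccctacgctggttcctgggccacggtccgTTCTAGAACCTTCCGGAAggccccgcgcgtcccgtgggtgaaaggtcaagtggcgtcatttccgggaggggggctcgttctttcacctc
Such a match was found in 0.603% of 32851 promoter windows of the same length. A match is a description of the letters and not a bound site. Of the 9 genes with a window, in 11 windows, only that of Hspe1 and the Hspd1 window sharing 285 bases with it held such a match. The gene without a window was Hspa9, which was not searched. The reads were counted by the authors on mm9, and these coordinates were used for the sequence alone.

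Hspd1, the HSP60 subunit, stood at 718 and 753 CPM in starved KO-labelled libraries, against 352 and 346 CPM in fed ones. In WT it stood at 929 and 906 CPM in starved libraries, against 430 and 433 CPM in fed ones. The starved libraries lay above the fed ones without overlap in both genotypes, and the rise was close to equal (log2 fold change 1.07 ± 0.029 and 1.09 ± 0.029; edgeR adjusted p = 1.36e-18 and 8.09e-19). Hspe1, the HSP10 lid of the same complex, stood at 201 and 207 CPM in starved KO-labelled libraries, against 108 and 113 CPM in fed ones. It stood at 326 and 326 CPM in starved WT libraries, against 137 and 137 CPM in fed ones. Hspe1 rose 1.85-fold in KO-labelled and 2.38-fold in WT cells, and the difference between these rises was -0.36 ± 0.048 on the log2 scale (edgeR adjusted p = 1.04e-06). For Hspd1 the same difference was -0.01 ± 0.04 (adjusted p = 0.802), but it was called with another scaling: 0.19 with library totals and -0.11 with DESeq2. It was also called without starved WT replicate 1 (-0.12) or 2 (-0.16).

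The ratio of Hspd1 to Hspe1 counts within a library does not depend on scaling. It was 3.57 and 3.64 in starved KO-labelled libraries and 3.27 and 3.06 in fed ones, and 2.85 and 2.78 in starved WT libraries against 3.15 and 3.16 in fed ones. Starved libraries thus lay above the fed ones in KO-labelled cells and below them in WT cells. With 2 libraries a group, no permutation test of a ratio can reach 0.05, and none is given. GENCODE M21 names 5 pseudogenes of Hspd1, 6 of Hspe1 and 1 of Hspa9, and it gives Hspd1 and Hspe1 112 bases of shared exon on opposite strands. How the authors counted reads with several matches and whether they used strand is not given in the sources used here, so the levels of these 3 genes carry that uncertainty.

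Hspa9, the matrix HSP70 that drives protein import, rose in both genotypes. It stood at 1083 and 1113 CPM in starved KO-labelled libraries, against 387 and 398 CPM in fed ones. In WT it stood at 1970 and 1972 CPM in starved libraries, against 641 and 641 CPM in fed ones. Hspa9 rose 2.8-fold in KO-labelled and 3.07-fold in WT cells, with no overlap between starved and fed libraries (edgeR adjusted p = 1.21e-21 and 2.11e-22).

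Dnaja3 encodes TID1, a J-domain partner that stimulates the ATPase of HSPA9. It stood at 125 and 119 CPM in starved KO-labelled libraries against 38.9 and 40.3 CPM in fed ones, and at 93.9 and 91.3 CPM in starved WT libraries against 44.9 and 43.6 CPM in fed ones. The gain was 3.09-fold in KO-labelled and 2.09-fold in WT cells (edgeR adjusted p = 1.58e-18 and 3.88e-15), and the difference between the gains was 0.56 ± 0.063 (edgeR adjusted p = 1.12e-07). For Hspa9 the same difference was -0.14 ± 0.036 (adjusted p = 0.00235), and it turned to 0.06 with library totals. The ratio of Hspa9 to Dnaja3 counts was 8.63 and 9.35 in starved KO-labelled and 9.95 and 9.89 in fed KO-labelled libraries, and 21 and 21.6 in starved WT and 14.3 and 14.7 in fed WT libraries. Part of the Dnaja3 exons is shared with Vasn (160 bases, same strand) and Coro7 (153 bases, opposite strand) in GENCODE M21. The Dnaja3 promoter window held the NRF1 element GCGCANGCGC, of a factor of mitochondrial biogenesis, and so did a window of Hspd1, as did 4.6% of all windows.

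Trap1 encodes the matrix HSP90. It stood at 125 and 121 CPM in starved KO-labelled libraries, against 62 and 60.7 CPM in fed ones. In WT it stood at 175 and 177 CPM in starved libraries, against 97.7 and 97.8 CPM in fed ones. These were gains of 2.01-fold and 1.8-fold (edgeR adjusted p = 3.53e-16 and 4.33e-15). The difference between them, 0.16 ± 0.052 (edgeR adjusted p = 0.0123), was no longer called without starved WT replicate 1 (0.02), without starved WT replicate 2 (0.03), with DESeq2 (0.06) or with a minimum of 5 CPM (0.09). Of the 5 chaperone genes, Trap1 had the smallest rise in WT and Hspe1 the smallest in KO-labelled cells.

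**Figure D2:**
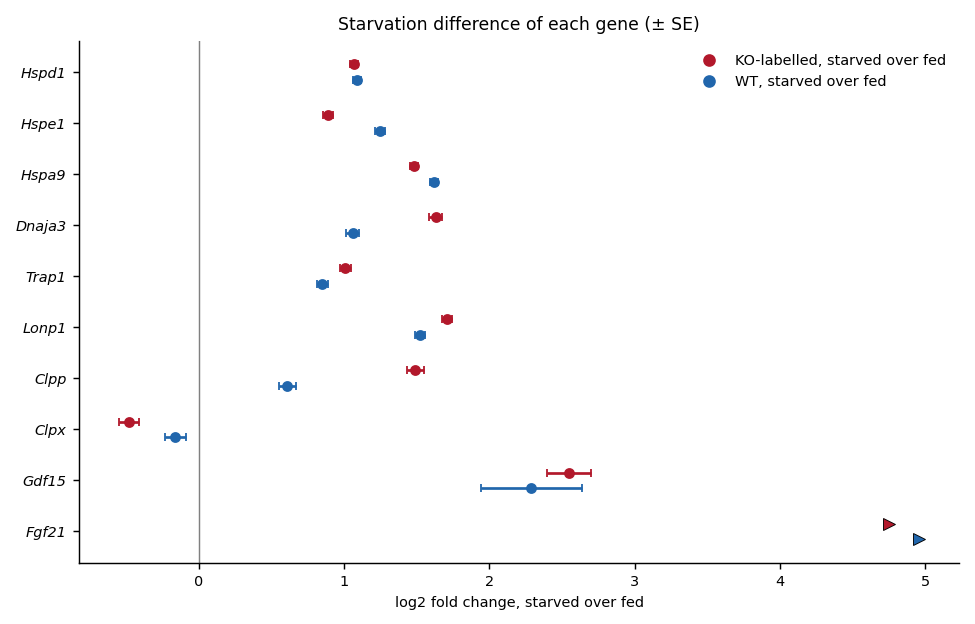
Log2 fold change of starved over fed cells (horizontal axis, ± SE) for each gene, in KO-labelled cells (red) and WT cells (blue), n = 2 libraries a group. Filled circles were called, and triangles for Fgf21 are lower bounds of 4.75 and 4.96. Dnaja3 and Clpp lie further right in KO-labelled cells, Hspe1 in WT cells, and Clpx lies below 0 in both.

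Among the proteases, Lonp1 rose and the subunits of CLPXP moved apart. Lonp1, an ATP-dependent protease that degrades oxidised and misfolded matrix proteins, stood at 346 and 331 CPM in starved KO-labelled libraries, against 103 and 104 CPM in fed ones. In WT it stood at 304 and 318 CPM in starved libraries, against 110 and 108 CPM in fed ones. Starved libraries of either genotype lay near 3 times the fed level, at 3.28-fold and 2.86-fold (edgeR adjusted p = 1.29e-20 and 8.97e-20). The difference between the responses, 0.2 ± 0.049 (edgeR adjusted p = 0.00147), was lost without starved WT replicate 1 (0.04) or 2 (0.1) and with DESeq2 (0.1).

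Clpp, the proteolytic subunit of CLPXP, stood at 72.6 and 64.5 CPM in starved KO-labelled libraries, against 24.9 and 23.7 CPM in fed ones. It stood at 76.7 and 74.6 CPM in starved WT libraries, against 47.9 and 51.5 CPM in fed ones. Starved cells of both genotypes reached similar levels, while fed KO-labelled cells lay 2.05-fold below fed WT cells. The rise was 2.82-fold (1.49 ± 0.059) in KO-labelled and 1.52-fold (0.61 ± 0.057) in WT cells (edgeR adjusted p = 9.19e-16 and 2.75e-09). Over the 15 alternatives it ran from 1.24 to 1.58 in KO-labelled and from 0.15 to 0.71 in WT cells, and was called in each. With a difference of 0.89 ± 0.082 (edgeR adjusted p = 5.41e-09), Clpp had the largest gap between the responses of the 9 genes for which one could be estimated. In all, 4 members were called with a higher and 3 with a lower response in KO-labelled cells, against 34.1% and 30.4% of all genes.

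Clpx, the unfoldase that feeds CLPP, was the only one of the 10 genes called lower in starvation. It stood at 23.9 and 21.9 CPM in starved KO-labelled libraries, against 31.8 and 31.9 CPM in fed ones, a fall by 0.48 ± 0.067 on the log2 scale (edgeR adjusted p = 1.31e-06). In WT it stood at 28.6 and 32.2 CPM in starved libraries, against 33.5 and 34.3 CPM in fed ones. The WT libraries did not overlap, but the change of -0.16 ± 0.069 (edgeR adjusted p = 0.0418) was not called without any single one of the WT libraries or of the fed KO-labelled libraries, and was 0 without starved WT replicate 1. It was not called with DESeq2 (-0.09) or in a fit of the WT libraries alone (-0.08) either. With library totals it stayed called lower, and over all 15 alternatives the change ran from -0.61 to 0. The ratio of Clpp to Clpx counts, which scaling does not touch, was 3.04 and 2.95 in starved KO-labelled and 0.783 and 0.741 in fed KO-labelled libraries. In WT it was 2.69 and 2.32 in starved and 1.43 and 1.5 in fed libraries. The starved ratios thus lay above all fed ratios, and the fed KO-labelled ratios were the lowest.

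**Figure D3:**
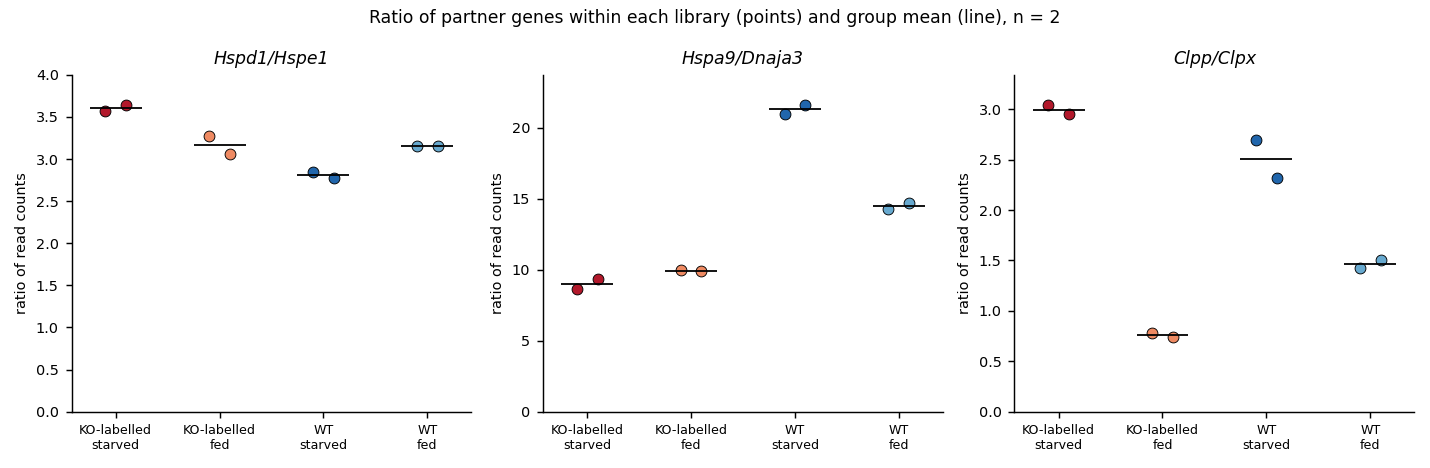
Ratio of the read counts of partner genes within each library (vertical axis, from 0, not corrected for transcript length) in the 4 groups. Points are libraries and lines are group means (n = 2). The ratio of Clpp to Clpx is highest in both starved groups, and that of Hspa9 to Dnaja3 is highest in starved WT cells.

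The mitokines were low in level and large in change. Gdf15, a distant member of the TGF-beta family that lowers appetite through its receptor GFRAL in the hindbrain, stood at 16.6 and 13.7 CPM in starved KO-labelled libraries, against 2.58 and 2.56 CPM in fed ones. It stood at 1.26 and 1.18 CPM in starved WT libraries, against 0.301 and 0.191 CPM in fed ones, where only 13 and 8 reads were counted. The 4 groups did not overlap, and fed KO-labelled cells already lay above starved WT cells. The rise was 5.88-fold (2.55 ± 0.15, edgeR adjusted p = 7.93e-13) in KO-labelled and 4.89-fold (2.29 ± 0.35, adjusted p = 4.31e-06) in WT cells, and the rises did not differ beyond their error (0.26 ± 0.44, adjusted p = 0.625).

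Of the macrophage and blood markers, Cd68 and Csf1r were, like Gdf15, highest in starved KO-labelled cells. Gdf15 was next highest in fed KO-labelled cells, where Cd68 did not stand above starved WT cells and Csf1r was lowest. The summed level of 8 macrophage and blood markers was 52.8 to 53.8 CPM in starved KO-labelled, 20.9 to 21.7 CPM in fed KO-labelled, 7 to 10.1 CPM in starved WT and 19 to 19.4 CPM in fed WT libraries. Both the sum and Gdf15 were highest in starved KO-labelled cells, but fed WT lay above starved WT for the sum. Nearly all of it was Cd14, Cd68 and Csf1r, which moved apart, with traces of Hba-a1 and Itgam, while Ptprc, Tyrobp and Emr1 were at 0 in every library. Cd68 rose with starvation as Gdf15 did, to 40.8 CPM in starved against 3.49 CPM in fed KO-labelled cells and to 3.7 CPM in starved against 2.12 CPM in fed WT cells. Csf1r averaged 6.23 CPM in starved and 0.418 CPM in fed KO-labelled cells, where it was called higher, and 1.32 CPM in starved and 0.972 CPM in fed WT cells, where it was not called. Cd14 fell, to 6.29 CPM in starved against 17.4 CPM in fed KO-labelled cells and to 3.52 CPM in starved against 16.1 CPM in fed WT cells. The part of such cells in the Gdf15 level was not tested. In bulk RNA, more cells that express a gene and more RNA per cell cannot be told apart.

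Fgf21, a hormone of the fibroblast growth factor family best known from the fasting liver, was not counted at all in the 4 fed libraries. The floor of 3 counts corresponds to 0.0486 to 0.0596 CPM in fed KO-labelled and 0.0695 to 0.0718 CPM in fed WT libraries. In starved KO-labelled libraries it had 65 and 78 counts, or 1.44 and 1.47 CPM, at least 26.9-fold higher than in fed ones. In starved WT libraries it had 80 and 64 counts, or 2.46 and 1.94 CPM, at least 31.1-fold higher. Both rises were called (edgeR adjusted p = 2.23e-08 and 1.14e-08). With no counts in fed cells, Fgf21 passed the filter on low counts through the starved libraries alone, so only a higher call was possible. No difference between the rises can be estimated because both fed groups were at 0. Of the hepatocyte markers Alb, Afp, Ttr, Apoa1 and Serpina1a, at most 3 had any count in a group and their sum was at most 0.357 CPM in any library.

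The Fgf21 promoter is shown because it holds a C/EBP-ATF composite element, the kind of site at which ATF4 and CHOP act. The search was for TGATGNAA on both strands, and the match, TGATGCAA on the minus strand of the window, ran from -139 to -132 relative to the start. Capitals mark it in the 250 bases before the start (chr7:45615491-45615740, minus strand of GRCm38.p6, from RefSeq, 5′ to 3′).
Fgf21: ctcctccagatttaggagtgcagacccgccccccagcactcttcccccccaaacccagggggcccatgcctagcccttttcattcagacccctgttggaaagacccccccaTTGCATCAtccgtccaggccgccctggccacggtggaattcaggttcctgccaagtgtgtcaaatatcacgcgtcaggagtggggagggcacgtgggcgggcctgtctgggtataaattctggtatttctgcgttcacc
Of all windows, 3.97% held a match. The windows of the other members that had one, Gdf15 included, did not hold these letters, which says nothing about sites elsewhere. Hspa9 had no window and was not searched.

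The genotype labels were then compared in each condition. In fed cells 1 of the 10 genes was called higher in KO-labelled than in WT cells and 6 were called lower, against 34.5% and 39.8% of all genes (74.4% in either direction). The libraries did not overlap for 9 of the 10 genes, against 87.3% of all genes. The higher one was Gdf15, at 2.58 and 2.56 CPM in fed KO-labelled against 0.301 and 0.191 CPM in fed WT libraries, 10.3-fold (3.36 ± 0.28, edgeR adjusted p = 7.83e-10). The lower ones were Clpp (-1.03 ± 0.06), Hspa9 (-0.71 ± 0.026), Trap1 (-0.67 ± 0.038), Hspd1 (-0.31 ± 0.029), Hspe1 (-0.31 ± 0.035) and Dnaja3 (-0.16 ± 0.047). The Dnaja3 call was lost with library totals (-0.05), in a fit of the fed libraries alone (-0.1), without fed KO-labelled replicate 1 (-0.14) and without starved WT replicate 1 (-0.1). Lonp1 (-0.07 ± 0.036) and Clpx (-0.09 ± 0.066) were not called and turned to 0.04 and 0.03 with library totals, and Fgf21 had no counts on either side.

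In starved cells 3 of the 10 genes were called higher in KO-labelled than in WT cells and 6 lower, against 41.9% and 37.7% of all genes (79.6% in either direction). The libraries did not overlap for any of the 10 genes, against 88.1% of all genes. Gdf15 was 12.4-fold higher (3.63 ± 0.18, edgeR adjusted p = 7.59e-14), Dnaja3 higher by 0.4 ± 0.043 and Lonp1 by 0.12 ± 0.033. The Lonp1 call was lost with DESeq2 (0.06) and without starved WT replicate 1 (0.03). Hspa9 (-0.84 ± 0.025), Hspe1 (-0.68 ± 0.033), Trap1 (-0.51 ± 0.036), Clpx (-0.41 ± 0.071), Hspd1 (-0.32 ± 0.028) and Clpp (-0.14 ± 0.055) were lower. With library totals Hspd1 was at 0 and no longer called, Clpx was at -0.09 and no longer called, and Clpp turned to 0.17 and was called higher. The Clpp call was also lost without starved KO-labelled replicate 2 (-0.06). Fgf21 differed by -0.59 ± 0.34, which was not called (adjusted p = 0.122). Both genotype comparisons share their libraries with the starvation comparisons and are not independent of them.

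**Figure D4:**
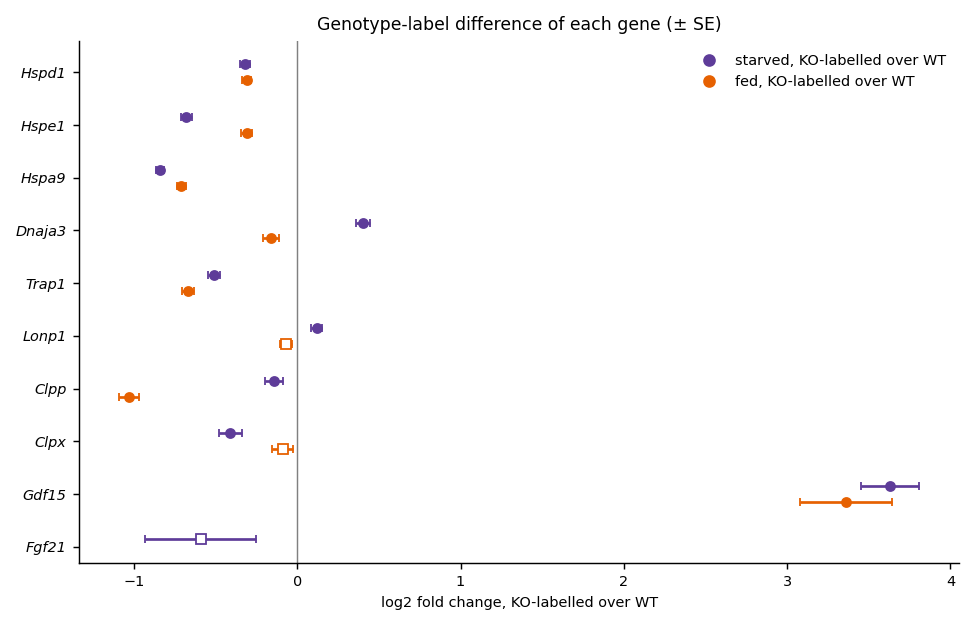
Log2 fold change of KO-labelled over WT cells (horizontal axis, ± SE) for each gene when starved (purple) and when fed (orange), n = 2 libraries a group. Filled circles were called and open squares were not. Gdf15 stands at 3.63 and 3.36, Clpp is lowest in fed cells at -1.03, and Fgf21 has no fed value because no read was counted.

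Levels between genes were set side by side only per kilobase of transcript, with the GENCODE M21 transcript that matches each RefSeq row. Hspa9, Hspd1 and Hspe1 were the highest 3 in each group. In starved KO-labelled cells they stood at 360 ± 7.1, 304 ± 10 and 264 ± 5.6 CPM per kilobase (SD, n = 2), and in fed KO-labelled cells at 129 ± 2.6, 144 ± 1.7 and 143 ± 5.1. In starved WT cells they stood at 647 ± 0.41, 379 ± 6.7 and 421 ± 0.31, and in fed WT cells at 210 ± 0.1, 178 ± 1.1 and 177 ± 0.83. Hspd1 and Hspe1, whose proteins form 1 complex, had overlapping libraries in fed cells of both genotypes. Lonp1 came next in each group but fed WT, where Clpp (50.6 ± 2.6) and Trap1 (42.1 ± 0.0076) stood above it (36.8 ± 0.53). Clpp and Trap1 in starved WT cells, at 77 ± 1.5 and 75.9 ± 0.48, did not differ beyond their spread. In starved KO-labelled cells Gdf15 (9.8 ± 1.4) lay just above Clpx (7.93 ± 0.5), while in fed WT cells it stood at 0.159 ± 0.05 against 11.7 ± 0.2 for Clpx.

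Related genes were described by lists, whose counts stand against 39.4% of all genes called higher and 40.3% lower in KO-labelled starvation, and 36.7% higher and 44.8% lower in WT starvation. Of 20 genes of the ATF4 pathway, listed for its part in mitochondrial stress, 18 rose and 2 fell in starved KO-labelled cells (median 2.34). In starved WT cells 17 rose and 3 fell (median 2.04). The list names say only how genes were grouped, and whether a response began in mitochondria was not tested. Cth, of cysteine synthesis, led in KO-labelled cells (4.13 ± 0.073) and Atf3, a stress transcription factor, in WT cells (5.92 ± 0.066). Pycr1, a mitochondrial enzyme of proline synthesis, differed between the responses by 2.7 ± 0.13, as it rose in KO-labelled (2.27 ± 0.089) and fell in WT cells (-0.44 ± 0.089). Atf3 and Vldlr differed the other way, by -2.81 ± 0.091 and -1.8 ± 0.067. Of the list, 9 genes had a higher and 5 a lower response in KO-labelled cells, against 34.1% and 30.4% of all genes. Among 23 factors of mitochondrial stress signalling, 13 rose and 7 fell in KO-labelled (median 0.2, which turned to -0.06 with library totals) and 16 rose and 4 fell in WT starvation (median 0.52, and 0.06 with library totals). Ddit3, which encodes CHOP, rose by 5.48 ± 0.037 in KO-labelled and 5.2 ± 0.037 in WT cells, and Atf4 by 1.94 ± 0.028 and 1.98 ± 0.028. Eif2ak2 changed by -2.74 ± 0.046 in KO-labelled and -2.51 ± 0.064 in WT cells, and Esr1 by -2.07 ± 0.11 in KO-labelled cells. The responses differed by -1.96 ± 0.29 for Esr1, -1.8 ± 0.32 for Cebpb and -1.19 ± 0.05 for Nfe2l2. Esr1 was low in WT cells, at 0.914 CPM in starved and 0.987 CPM in fed ones. The starved WT libraries lay far apart for Cebpb, at 113.8 and 270.6 CPM, so the size of its difference is uncertain. Atf5, a factor linked to the mitochondrial unfolded protein response, rose by 0.95 ± 0.038 in KO-labelled and 1.1 ± 0.04 in WT cells. Hsf1, the heat shock factor, rose by 1.03 ± 0.044 and 1.56 ± 0.044. Atf5 and Hsf1 lay outside the rule for named genes and were picked after their values were seen.

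Other mitochondrial quality control genes had smaller list medians than the 9 members without Fgf21, a difference that was not tested, and held single large changes. Of 15 other chaperones and cochaperones, 10 rose and 3 fell in KO-labelled (median 0.57) and 9 rose and 4 fell in WT starvation (median 0.3, which turned to -0.15, with 4 higher and 8 lower, with library totals). Dnajc28, a J-domain protein gene, fell in both genotypes (log2 fold change -2.15 ± 0.25 in KO-labelled and -3.33 ± 0.34 in WT cells). Its level was low, at 0.815 CPM in starved and 3.65 CPM in fed KO-labelled cells. In WT it averaged 0.274 CPM in starved cells, from 18 counts, and 2.78 CPM in fed ones. Grpel2, a nucleotide exchange factor of HSPA9, rose by 1.64 ± 0.068 in KO-labelled and 2.08 ± 0.068 in WT cells. Of 22 other proteases and prohibitins, 12 rose and 4 fell in KO-labelled (median 0.39) and 15 rose and 5 fell in WT starvation (median 0.53, and 0.07, with 7 higher and 8 lower, with library totals). Oma1, the stress-activated protease of the inner membrane, fell by 2.25 ± 0.16 on the log2 scale in WT starvation, and its responses differed by 1.6 ± 0.2 (edgeR adjusted p = 6.64e-07). Of 26 genes of protein import, 22 rose and 2 fell in KO-labelled (median 0.62) and 23 rose and 3 fell in WT starvation (median 0.53, and 0.07 with library totals). Timm10, a chaperone of the intermembrane space, rose by 1.45 ± 0.093 in KO-labelled and 1.88 ± 0.092 in WT cells. Timm21 had the largest change of that list in WT cells, a fall (-1.93 ± 0.14). The responses differed by 1.09 ± 0.091 for Timm22, 0.98 ± 0.19 for Timm21 and 0.97 ± 0.1 for Timm17b. In that difference 9 import genes were called higher and 9 lower, against 34.1% and 30.4% of all genes.

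Chaperones of the same families in the cytosol and the ER were set beside the mitochondrial ones. Of 20 such genes, 14 rose and 4 fell in KO-labelled (median 0.61) and 19 rose and the other was not called in WT starvation (median 1.27), while library totals gave 12 higher and 8 lower in KO-labelled and 16 higher and 4 lower in WT starvation. Hspa5, the ER relative of Hspa9, rose by 3.19 ± 0.023 in KO-labelled and 3.32 ± 0.023 in WT cells. Dnajb9 and Hyou1 of the same list rose by 4.11 ± 0.048 and 3.71 ± 0.03 in KO-labelled cells. In WT cells they rose by 3.54 ± 0.053 and 2.75 ± 0.03. Hspa8, the cytosolic relative, differed by 0.04 ± 0.021 in KO-labelled starvation (not called, edgeR adjusted p = 0.0797) and rose by 1.59 ± 0.021 in WT, a gap of -1.55 ± 0.029 (adjusted p = 9.06e-20).

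**Figure D5:**
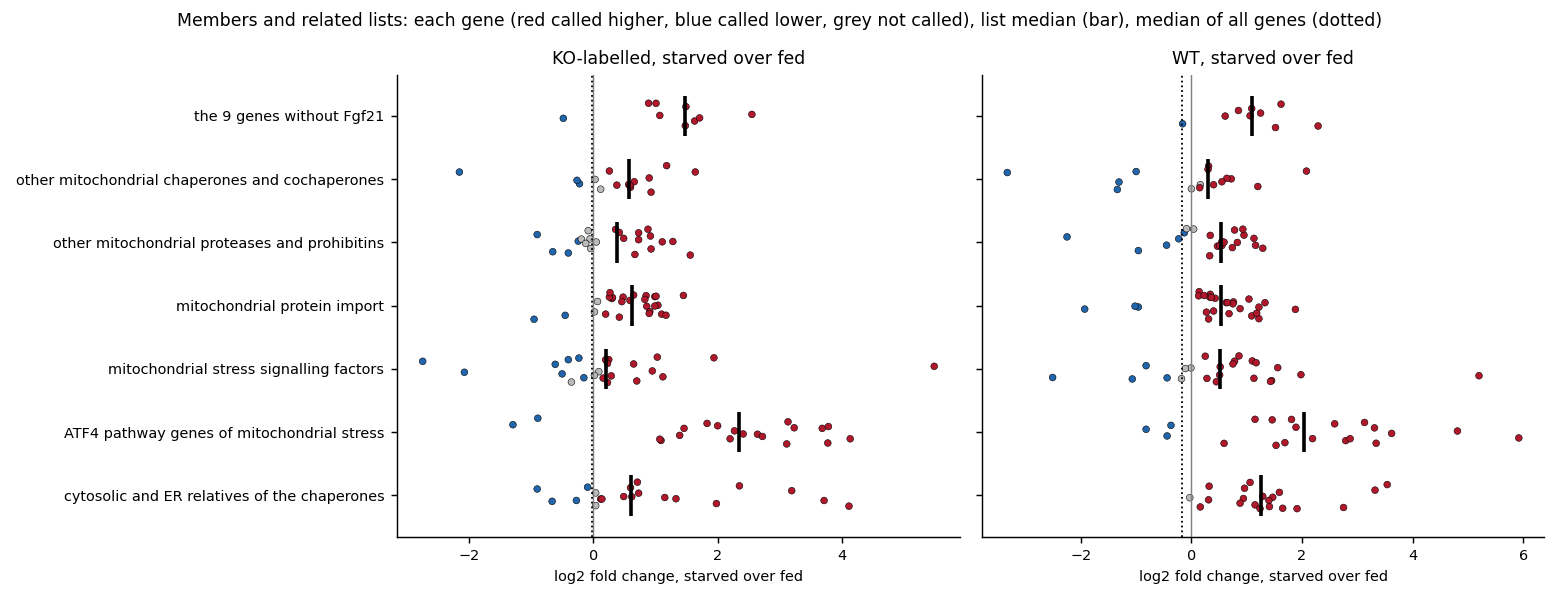
Log2 fold change of starved over fed cells (horizontal axis) for each tested gene of the lists (rows), in KO-labelled cells (left) and WT cells (right). Red points were called higher, blue lower and grey neither, bars are list medians and dotted lines the median of all genes. The ATF4 pathway list has the highest median in both panels (2.34 and 2.04), and the 9 members without Fgf21 come second in KO-labelled cells (1.48). In WT cells those members (1.09) lie below the cytosolic and ER relatives (1.27).

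Receptors of the mitokines and related hormones were mostly low. Of 17 such genes 11 passed the filter on low counts, and 4 rose and 5 fell in KO-labelled and 5 rose and 3 fell in WT starvation, shares near those of all genes for KO-labelled cells. Gfral had 2 counts in starved WT libraries and 0 in the other groups, and Klb, the coreceptor that FGF21 needs, had 0 counts in starved KO-labelled, 4 in fed KO-labelled, 4 in starved WT and 18 in fed WT libraries. Fgfr1, the receptor kinase that pairs with it, stood at 281 ± 1.8 CPM in starved KO-labelled, 222 ± 2.2 CPM in fed KO-labelled, 579 ± 18 CPM in starved WT and 258 ± 1.6 CPM in fed WT cells (SD, n = 2). These 3 receptors were named after their values were seen. Fgfr4, with 0 counts in fed cells, had 30 counts in starved KO-labelled and 20 in starved WT libraries, at least 5.66-fold and 4.32-fold higher. It passed the filter through the starved libraries alone, so only a higher call was possible. Fgf23 was called lower in both genotypes, with 1 count in starved and 20 in fed KO-labelled libraries. In WT it had 0 counts in starved and 21 in fed libraries. It passed through the fed libraries alone, so only a lower call was possible. The counts of genes that rose and fell include both. Adm2, a stress-regulated peptide hormone gene, rose by 5.76 ± 0.2 in KO-labelled and 4.33 ± 0.21 in WT cells, from 32 and 37 counts in the fed groups. The responses differed by -3.08 ± 0.37 for Fgfr3, -2.22 ± 0.057 for Fgfr2 and 1.42 ± 0.4 for Adm2. Fgfr2 averaged 89.3 CPM in starved and 117.2 CPM in fed KO-labelled cells. In WT it averaged 132 CPM in starved and 37.3 CPM in fed cells.

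The genes whose profile over the 8 libraries lay closest to a member were found by the root mean square difference of log2 CPM after centring each gene. Nme2, Pdhb and Mtmr2 lay within 0.046 to 0.051 of Hspd1, and Atp6v1g1, D10Wsu102e and Sec24a within 0.068 to 0.087 of Lonp1. Gdf15 had no close match: Cftr, 2010003K11Rik and Renbp came nearest at 0.42 to 0.46. Among the members, Hspd1 and Hspe1 lay closest to each other (0.13), followed by Hspe1 and Trap1 (0.16). Dnaja3 and Lonp1 differed by 0.17 from each other and by 0.29 and 0.32 from Hspd1.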

How the data were processed

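The deposited table holds unnormalised read counts for 31055 RefSeq transcripts. TopHat2 2.0.9, bedtools and mm9 are named without roles, per the submitters' processing notes. Strand use, multiple matches and filters are not given in the sources. The table has 4 more per-sample columns, which no label covers and which stayed unused. Per symbol the row with the largest sum of counts was kept, since isoform rows repeat reads (99.76% for Dnaja3 and 99.87% for Clpx). Groups and replicate numbers came from the titles.

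Counts were fitted with edgeR 4.0.16 in R 4.3.3: TMM, filterByExpr, 1 coefficient per group, 4 residual degrees of freedom, quasi-likelihood F test, Benjamini-Hochberg adjustment over 14418 genes, threshold 0.05. The pipeline was tested on simulated data. SEs were taken from the fold change and F (|log2 fold change| / square root of F). Folds against 0 counts are lower bounds at 3 counts per library; floors cover counting error only. The 10 genes and the lists were chosen with earlier results of these data known. Named from each list were at most the 3 called genes with the largest change in a starvation comparison or in the difference between them. Alternatives were library totals, DESeq2 1.42.0, no filter, at least 5 CPM in 2 libraries, summed isoforms, only the groups compared, a replicate block, and leaving out each library. RefSeq promoter windows (GRCm38.p6) matched 9 of the 10 genes by symbol, and the motifs were searched on both strands.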

Additional observations from a re-analysis of the deposited data

Results flagged for a closer look

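For 7 of the 10 genes the starvation responses of the genotypes differed, by edgeR's test of the difference itself (n = 2 libraries a group). That share is near the 64.5% of all genes, and for Fgf21 no difference could be estimated. Clpp rose more in KO-labelled than in WT cells by 0.89 on the log2 scale, Dnaja3 by 0.56, Lonp1 by 0.2 and Trap1 by 0.16. Hspe1 rose less in KO-labelled cells, with a difference of -0.36, and Hspa9 likewise with -0.14. Clpx fell further in KO-labelled cells, with a difference of -0.32, which was -0.12 and not called with library totals. The Lonp1 and Trap1 differences rest on both starved WT libraries being kept, and that of Hspa9 turned with library totals. The values for Clpp, Dnaja3 and Hspe1 kept their sign and call under each of the 14 alternatives run. The genotype labels also differ in the sex of the cells, and the part of that in these differences cannot be told apart.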

How the results depend on the processing

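Of the alternative values for single members, 684 kept direction and call, 25 lost the call, 3 gained one and 9 turned direction. Turned values with library totals were 0.17 for Clpp between starved genotypes, 0.03 for Clpx and 0.04 for Lonp1 between fed genotypes, and 0.06 for Hspa9 and 0.19 for Hspd1 in the difference between responses. Leaving out 1 library each gave -0.16 to 0.03 for Hspd1 and -0.09 (without fed WT replicate 1) to 0.55 for Gdf15 in that difference. Of the alternative counts of calls, 282 stayed within 1.5 times and 14 did not. With library totals, 3397 genes and not 5296 were higher in WT starvation, 3 and not 6 members were lower between starved genotypes, and 1 and not 3 lower in the difference. With DESeq2, 2 and not 4 members were higher in the difference. The 1 lower member in WT starvation (Clpx) became 0 with DESeq2 and with only the groups compared, and 0 to 1 without 1 library. Higher members in the difference were 2 to 4 without 1 library. The cause was not tested. Replicate numbers share only a number: deviations of same-numbered libraries correlated at -0.141 to 0.093 over 8852 genes, and the replicate block gave 9 higher and 1 lower members in each starvation comparison, 5254 and 6366 calls in WT starvation, and changed no member count. Depth limits Fgf21 and fed WT Gdf15 alone, with 0 and 21 counts.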
